A study of Mus musculus with 6 samples.

Results

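The RNAs made from the mouse mitochondrial genome were followed in activated group 2 innate lymphoid cells (aILC2s) cultured with or without melatonin. The genes described are mt-Nd1, mt-Nd2, mt-Nd4, mt-Nd5, mt-Cytb, mt-Co1, mt-Co2, mt-Co3, mt-Atp6 and mt-Rnr2, 10 of the 16381 genes listed in a table of normalised counts. They were listed by name. Of the 13 proteins that mitochondrial DNA encodes they cover 9, together with the large ribosomal RNA, and the other 5 mitochondrial rows of the table (mt-Rnr1, mt-Atp8, mt-Nd3, mt-Nd4l and mt-Nd6) are given beside them. The cells came from the lungs of wild-type BALB/cJ mice that had received interleukin-33 (IL-33) through the nose, an alarmin that activates ILC2s, and were sorted as CD45+ lineage-negative ST2+ CD127+ cells. They were cultured for 24 h with 250 µM melatonin, or with the solvent DMSO (vehicle, 0 µM), and each group holds 3 RNA-seq libraries. Both groups therefore share the IL-33 protocol, the sort markers and the time in culture. The labels do not say that they came from the same mice or the same sort. The labels do not say whether the libraries of a group came from separate animals or cultures, so the p-values below measure only the spread between these libraries.

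The estimated totals ran from 17056268 to 20511712 counts per library. All 12 ILC2 marker genes were measured, with a summed normalised count of 205044 to 217245 in vehicle and 140045 to 155336 in melatonin libraries. The study's methods name female mice, but 4 libraries (the 3 vehicle libraries and melatonin 1) held summed Y-linked transcripts of 2680 to 3038, whereas melatonin 2 and melatonin 3 held 0. The female marker Xist was at 579 and 1091 in melatonin 2 and melatonin 3 and at 0 to 13.6 in the 4 other libraries. The melatonin libraries therefore did not all come from the same mice. Treatment and this difference in sex markers are partly confounded, and results are also given for the 4 libraries with Y-linked transcripts alone. In these bulk samples, fewer cells of a type and less RNA per cell cannot be told apart.

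Mitochondrial DNA is a small circle, present in many copies per cell, that is read from both strands into long precursor RNAs. These are cut, mostly at the transfer RNAs that lie between the genes, into messenger and ribosomal RNAs. The proteins are core subunits of complexes I, III and IV of the respiratory chain and of the ATP synthase (complex V), and all other subunits come from nuclear genes. Most mitochondrial messengers receive a short poly(A) tail, and the libraries here were primed with oligo-dT, which binds such tails.

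On GRCm39 the members lie on the forward strand at chrM:1094-2675 (mt-Rnr2), chrM:2751-3707 (mt-Nd1), chrM:3914-4951 (mt-Nd2), chrM:5328-6872 (mt-Co1), chrM:7013-7696 (mt-Co2), chrM:7927-8607 (mt-Atp6), chrM:8607-9390 (mt-Co3), chrM:10167-11544 (mt-Nd4), chrM:11742-13565 (mt-Nd5) and chrM:14145-15288 (mt-Cytb), each as a single exon without introns.

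The tail finishes the message in some of these genes. The genes mt-Co3, mt-Nd4 and mt-Cytb stop 1 base into their last codon, so that only the T of the TAA stop codon is encoded and the tail supplies the rest. Their last 30 bases in the GRCm39 mitochondrial genome are shown because this is the end at which priming takes place, with the lone T in capitals (chrM:9361-9390 for mt-Co3, chrM:11515-11544 for mt-Nd4 and chrM:15259-15288 for mt-Cytb, all on the forward strand).
mt-Co3: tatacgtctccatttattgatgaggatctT
mt-Nd4: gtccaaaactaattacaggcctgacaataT
mt-Cytb: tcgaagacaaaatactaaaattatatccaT

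Neighbouring genes also share bases. The end of mt-Atp8 and the start of mt-Atp6 overlap by 43 bases (chrM:7927-7969, forward strand), shown with the start codon of mt-Atp6 and the stop codon of mt-Atp8 in capitals.
mt-Atp8 and mt-Atp6: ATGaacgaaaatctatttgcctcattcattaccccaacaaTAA
The pair mt-Nd4l and mt-Nd4 overlaps by 7 bases, mt-Atp6 and mt-Co3 by 1 base, and mt-Nd5 and mt-Nd6, which lie on opposite strands, by 14 bases. Reads in such stretches can be assigned to either gene. No transfer RNA lies between genes that overlap, so the rows of a pair on the same strand need not stand for separate RNAs.

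The nuclear genome holds copies of mitochondrial DNA, and 11 of them have rows of their own in the table. A run of 7 such copies lies on the minus strand of chromosome 1, of which Gm28661 (mt-Co2), Gm28437 (mt-Co3), Atp6-ps (mt-Atp6), Gm10222 (mt-Nd4l) and Gm28439 (part of mt-Nd4) match the mitochondrial gene at every aligned base. The other copies on chromosome 1 differ by a single base over their aligned length: Gm29216 by A1066T over 483 bases of mt-Co1, and Gm28438 by T3C over 345 bases of mt-Nd3 (the mitochondrial base first, positions counted from the first base of the gene). The first 30 aligned bases of each pair, from GRCm39 and the GENCODE M39 transcripts, show how little there is to tell the pairs apart, with the differing base in capitals (chrM:6390-6419 and chrM:9459-9488, forward strand).
mt-Co1: ggaAttgttttatccaactcatcccttgac
Gm29216: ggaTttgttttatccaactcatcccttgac
mt-Nd3: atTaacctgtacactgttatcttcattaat
Gm28438: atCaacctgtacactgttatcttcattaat
The first 45 bases of mt-Co3 (chrM:8607-8651) and of Gm28437 are shown as an example of a pair with no difference.
mt-Co3: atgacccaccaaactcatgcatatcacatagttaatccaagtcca
Gm28437: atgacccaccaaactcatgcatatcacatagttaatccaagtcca
The reference sequence is that of another strain, C57BL/6J. Reads that match both were divided between rows by an estimation step, so a member's own row can hold only part of its reads, and each affected member is also given as the sum of its own row and its copies.

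Most transcripts of the mitochondrial genome were lower with melatonin, and mt-Co1 was the member that was not called. The test, limma on log2(normalised count + 1) with Benjamini-Hochberg adjustment over 14419 genes, called 9 of the 10 members lower and 0 higher, with 0 higher also at an unadjusted p under 0.05 and by limma with voom weights. Over all genes tested, 24.7% were called lower. A log2 fold change of -0.5 or lower was found for 9 of 10 members and for 25% of all genes tested. With melatonin 1 against the 3 vehicle libraries, the 4 with Y-linked transcripts, 8 of 10 members were lower and the median was -0.98, the lone melatonin library being assumed to vary like the others. With a correction for transcript length 6 of 10 were lower and the median was -0.61, and mt-Cytb, mt-Atp6 and mt-Rnr2 were no longer called. The median log2 fold change (melatonin minus vehicle) was -0.94 over the members and -0.00 over all genes tested. In 9 of 10 members each melatonin library lay below each vehicle library, against 30.3% of all genes tested. The 10 members made up 0.657%, 0.503% and 0.461% of all normalised counts in vehicle 1, 2 and 3 and 0.335%, 0.243% and 0.392% in melatonin 1, 2 and 3. The groups did not overlap, with means of 0.540% ± 0.103 and 0.323% ± 0.0751 (SD, n = 3). With 3 libraries against 3 an exact permutation test cannot reach 0.05, and none is given for the share.

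**Figure D1:**
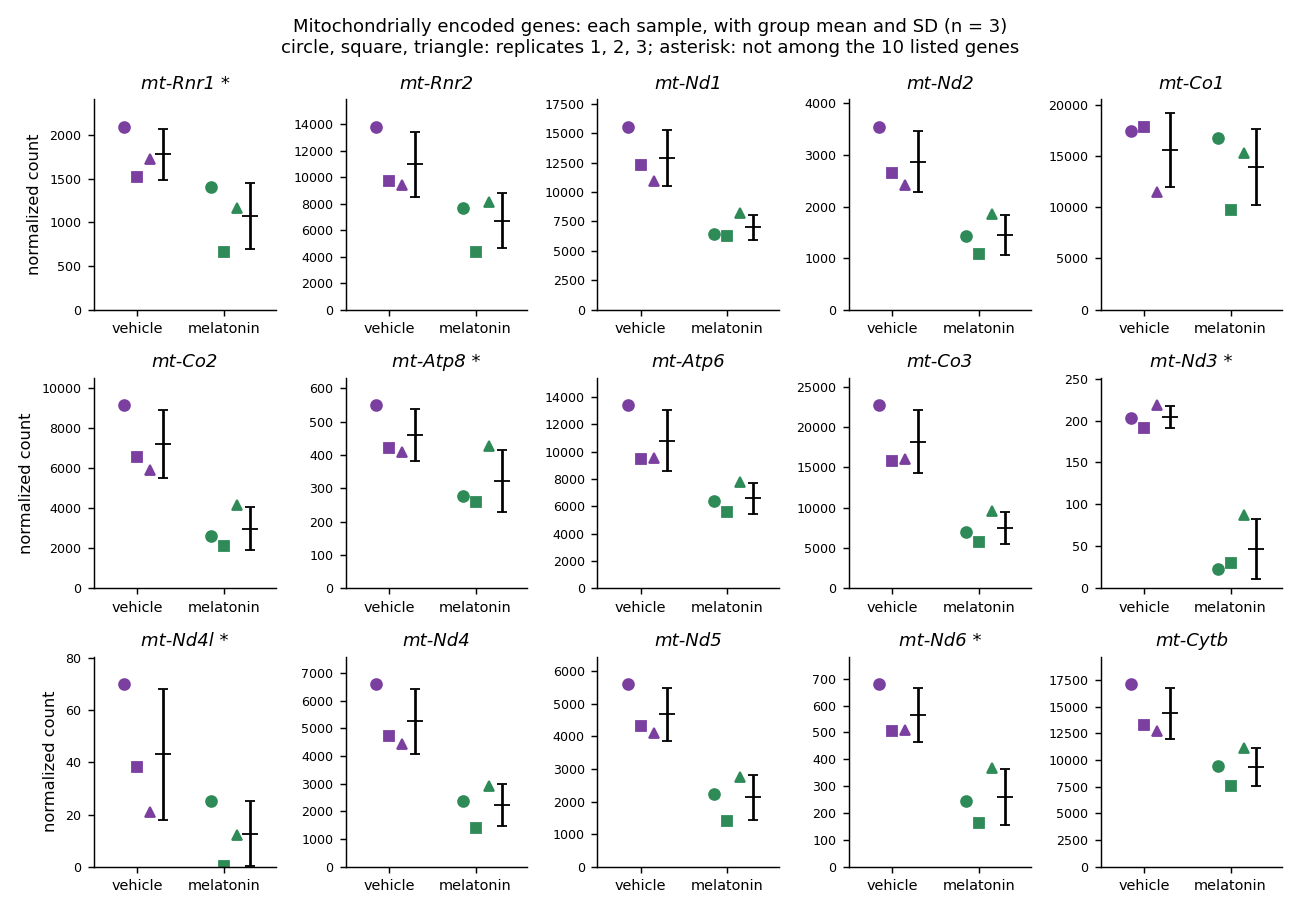
Normalised counts (vertical axes, each from 0) of the 15 mitochondrial genes in the 3 vehicle and 3 melatonin libraries, with circle, square and triangle for replicates 1, 2 and 3, bars for the mean and SD, and an asterisk on the 5 genes outside the 10 members. Among the members the groups overlap in mt-Co1 alone, and melatonin 2 is the lowest of the melatonin libraries in 10 of 10.

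Complex I takes electrons from NADH, and its 4 members fell together. The value of mt-Nd1, the subunit that anchors the quinone site, was 15537, 12341 and 10904 in vehicle 1 to 3 and 6475, 6280 and 8237 in melatonin 1 to 3, a log2 fold change of -0.88 (SE 0.15, adjusted p = 0.0014, limma), or -0.54 with the length correction (adjusted p = 0.0077). That of mt-Nd2, a proton-pumping membrane subunit, was 3545, 2655 and 2413 in vehicle and 1430, 1079 and 1848 in melatonin libraries, a log2 fold change of -0.997 (SE 0.20, adjusted p = 0.0036). Every melatonin library was below every vehicle library in both genes. The genes mt-Nd4 and mt-Nd5 encode the other antiporter-like subunits of the membrane arm. For mt-Nd4 the values were 6597, 4734 and 4424 in vehicle and 2363, 1402 and 2902 in melatonin libraries (log2 fold change -1.28, SE 0.25, adjusted p = 0.0032). For mt-Nd5 they were 5605, 4303 and 4111 in vehicle and 2227, 1393 and 2761 in melatonin libraries (log2 fold change -1.18, SE 0.23, adjusted p = 0.0030). Neither gene overlapped between groups, and melatonin means were 42.3% and 45.5% of the vehicle means. Nuclear copies held at most 2.48% of the summed value of mt-Nd4, 2.12% of mt-Nd2 and 0.391% of mt-Nd5, and the summed log2 fold changes were -1.28, -0.99 and -1.18.

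The other complex I genes of the mitochondrial genome had lower normalised counts on their own rows. The strand partner of mt-Nd5, mt-Nd6, the only protein gene of the other strand, was at 680, 505 and 509 in vehicle and 246, 163 and 369 in melatonin libraries and fell by 1.19 on the log2 scale (adjusted p = 0.0062), or by 0.71 with the length correction (adjusted p = 0.036). Because the library kit does not mark strand, reads from either strand cannot be told apart anywhere along mt-Nd6, its overlap with mt-Nd5 included. The row of mt-Nd6 therefore does not show which strand's RNA was lower. The small membrane subunit mt-Nd3 was at 203, 192 and 218 in vehicle and 22.5, 29.8 and 87.4 in melatonin libraries, a log2 fold change of -2.36 (SE 0.42, adjusted p = 0.0022). Its copy Gm28438 held 74.4% to 86.1% of the summed value in the 6 libraries, and the sum of both gave -2.12 (adjusted p = 0.00034). The gene mt-Nd4l, at 70.0, 38.2 and 20.9 in vehicle and 25.2, 0.368 and 12.2 in melatonin libraries, overlapped between groups and was not called on its own row (log2 fold change -2.33, adjusted p = 0.075), and it was called lower in 4 of 21 alternative fits, the sum with its copy among them. Its log2 fold change was -1.08 without melatonin 2 (adjusted p = 0.149), -3.21 without melatonin 1 (adjusted p = 0.019) and -0.58 in the 4 libraries with Y-linked transcripts (adjusted p = 0.485). Summed with Gm10222 it was at 182, 124 and 123 in vehicle and 95.2, 57.9 and 78.4 in melatonin libraries, and fell by 0.88 (adjusted p = 0.015).

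Complex III passes electrons to cytochrome c, and mt-Cytb encodes its only mitochondrial subunit. Its value was 17120, 13293 and 12720 in vehicle and 9430, 7556 and 11098 in melatonin libraries, a log2 fold change of -0.62 (SE 0.16, adjusted p = 0.010, limma). With the length correction it was -0.33 and not called (adjusted p = 0.076). The groups did not overlap, but the highest melatonin library lay close under the lowest vehicle library.

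Complex IV, cytochrome c oxidase, reduces oxygen. Of its 3 mitochondrial subunits 2 were called lower, against 24.7% of all genes tested. The transcript of mt-Co2, which receives electrons from cytochrome c, was at 9138, 6557 and 5935 in vehicle and 2627, 2128 and 4176 in melatonin libraries, a log2 fold change of -1.31 (SE 0.24, adjusted p = 0.0023). That of mt-Co3, a structural core subunit, was at 22688, 15805 and 16030 in vehicle and 7036, 5770 and 9647 in melatonin libraries, a log2 fold change of -1.29 (SE 0.20, adjusted p = 0.00093). Melatonin means were 41.3% and 41.2% of the vehicle means, and neither gene overlapped between groups. By contrast mt-Co1, which carries the catalytic haem-copper centre, was at 17424, 17821 and 11453 in vehicle and 16779, 9724 and 15279 in melatonin libraries. The groups overlapped, the log2 fold change was -0.17 (SE 0.22, adjusted p = 0.552), and its 95% interval of -0.68 to 0.34 includes both a fall and a rise. Vehicle 3 and melatonin 2 were the low libraries of their groups, and without melatonin 2 the log2 fold change of mt-Co1 was 0.07.

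**Figure D2:**
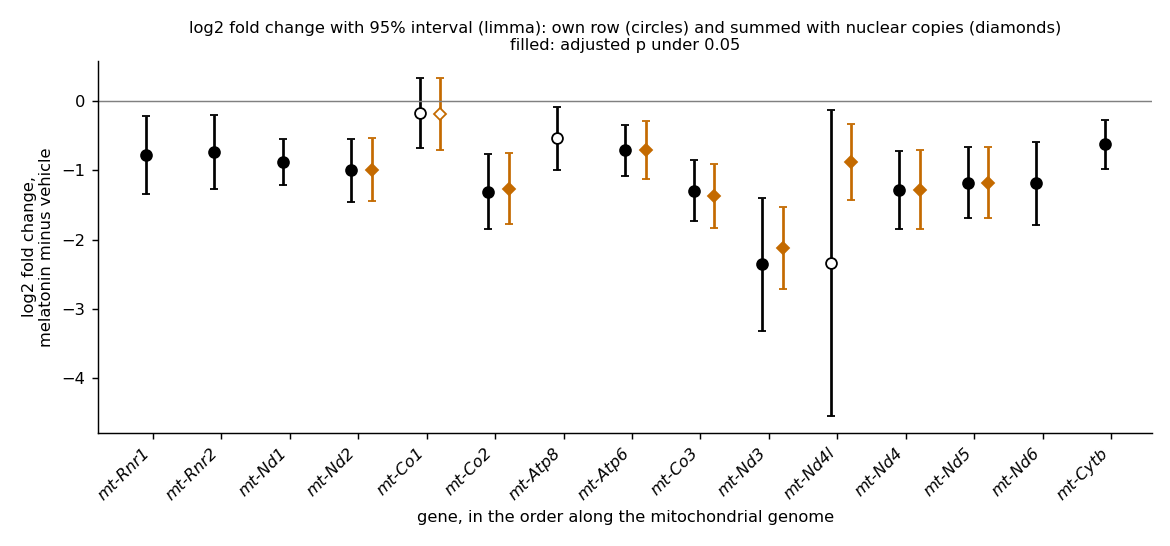
Log2 fold changes (melatonin minus vehicle) with 95% intervals for the 15 mitochondrial genes, as circles on their own rows and as diamonds where summed with nuclear copies, filled where the adjusted p is under 0.05. The interval of mt-Co1 spans 0 in both forms, -0.68 to 0.34 and -0.70 to 0.33.

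Much of the signal of mt-Co3 and mt-Co2 lay on rows of nuclear copies. The copies held 58.0% to 59.6% of the summed value of mt-Co3 in vehicle and 54.4% to 58.4% in melatonin libraries. For mt-Co2 the range was 46.8% to 51.9% and 49.0% to 53.7%, and for mt-Co1 16.9% to 19.1% and 15.4% to 19.4%. The row of Gm28437, identical to mt-Co3, was thus larger than that of mt-Co3 itself, at 31325, 23323 and 22823 in vehicle and 9864, 6869 and 12630 in melatonin libraries. The summed log2 fold changes were -1.37 for mt-Co3 (adjusted p = 0.00081), -1.26 for mt-Co2 (adjusted p = 0.0020) and -0.19 for mt-Co1 (adjusted p = 0.523). Of the 11 copies, 6 were called lower, against 24.7% of all genes tested. The calls of Atp6-ps and Gm10222 were the less steady ones, held in 2 of 6 and in 3 of 6 fits that left out 1 library, and with the length correction their log2 fold changes went from -0.72 to -0.29 and from -0.62 to -0.013.

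**Figure D3:**
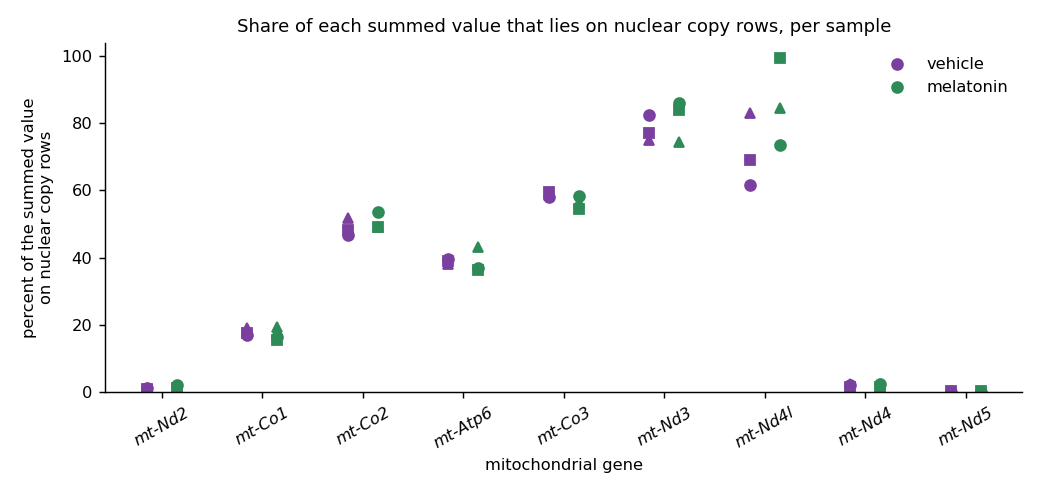
Percent of each gene's summed value (own row plus nuclear copies) that lies on the rows of the copies, one point per library (circle, square and triangle for replicates 1, 2 and 3). The share for mt-Co3 is between 54.4% and 59.6% in all 6 libraries, whereas for mt-Nd4, mt-Nd2 and mt-Nd5 it is at most 2.48%.

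Complex V makes ATP, and mt-Atp6 encodes the subunit that forms its proton channel. Its value was 13376, 9461 and 9558 in vehicle and 6362, 5556 and 7800 in melatonin libraries, without overlap, a log2 fold change of -0.71 (SE 0.16, adjusted p = 0.0063). With the length correction it was -0.29 and not called (adjusted p = 0.119). The copy Atp6-ps held 36.3% to 43.2% of the sum, and the summed value fell by 0.71 (adjusted p = 0.012). The partner mt-Atp8 was at 549, 420 and 410 in vehicle and 278, 260 and 428 in melatonin libraries, with melatonin 3 inside the vehicle range, and missed the threshold (log2 fold change -0.53, adjusted p = 0.053). It was called lower in 6 of 22 alternative fits, limma with voom weights among them (adjusted p = 0.046), and with the length correction its log2 fold change was 0.15 (adjusted p = 0.496).

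The ribosomal RNAs build the mitochondrial ribosome. The large one, mt-Rnr2, was at 13806, 9709 and 9422 in vehicle and 7694, 4369 and 8117 in melatonin libraries, a log2 fold change of -0.74 (SE 0.23, adjusted p = 0.028, limma). The groups did not overlap, but the call was lost without vehicle 1 (log2 fold change -0.56, adjusted p = 0.094), without vehicle 2 (-0.81, adjusted p = 0.053) and without melatonin 2 (-0.45, adjusted p = 0.060). It was also lost with the length correction (-0.55, adjusted p = 0.069) and in the 4 libraries with Y-linked transcripts (-0.49, adjusted p = 0.107). The small one, mt-Rnr1, was at 2090, 1516 and 1723 in vehicle and 1400, 660 and 1167 in melatonin libraries and fell by 0.78 (adjusted p = 0.028). Its call was lost without vehicle 1 (log2 fold change -0.66, adjusted p = 0.088), without vehicle 3 (-0.80, adjusted p = 0.076), in the 4 libraries with Y-linked transcripts (-0.33, adjusted p = 0.161), with the length correction (-0.44, adjusted p = 0.175) and with no trend (adjusted p = 0.088). Without melatonin 2 the call held at a smaller log2 fold change of -0.46 (adjusted p = 0.043). The ratio of mt-Rnr1 to mt-Rnr2 was 0.151 to 0.183 in vehicle and 0.144 to 0.182 in melatonin libraries, so the balance of the pair did not separate the groups.

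Per kilobase of gene, on own rows, vehicle means ran in the order mt-Co3 (23181), mt-Atp6 (15857), mt-Nd1 (13508), mt-Cytb (12568), mt-Co2 (10541), mt-Co1 (10075), mt-Rnr2 (6940), mt-Nd4 (3811), mt-Nd2 (2766) and mt-Nd5 (2562). In melatonin libraries mt-Atp6 (9651), mt-Co3 (9546) and mt-Co1 (9015) led, followed by mt-Cytb (8183), mt-Nd1 (7312), mt-Co2 (4352), mt-Rnr2 (4252), mt-Nd4 (1612), mt-Nd2 (1399) and mt-Nd5 (1166). In vehicle libraries the neighbours from mt-Atp6 down to mt-Rnr2 overlapped in range, as did mt-Nd4 with mt-Nd2 and mt-Nd2 with mt-Nd5, whereas mt-Co3 stood above mt-Atp6 and mt-Rnr2 above mt-Nd4. In melatonin libraries the first 5 overlapped neighbour by neighbour, and gaps lay between mt-Nd1 and mt-Co2 and between mt-Rnr2 and mt-Nd4. Because the libraries were primed at poly(A) tails, counts per kilobase need not rank these RNAs by amount. This order also leaves out what was placed on the copies, and it changes when they are added. Summed with copies, mt-Co3 led in both groups, with means of 56120 per kilobase in vehicle and 22030 in melatonin libraries, followed by mt-Atp6 (25976 and 15940). Next came mt-Co2 (20573) in vehicle libraries, and mt-Co1 (10905) and then mt-Co2 (8802) in melatonin libraries. On this scale too the ranges of mt-Co3 and mt-Atp6 overlapped in melatonin libraries and not in vehicle libraries. Within each melatonin library mt-Co3 was above mt-Atp6, at 21557, 16121 and 28414 against 14841, 12801 and 20178.5.

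Within the summed value of the 10 members on their own rows, the share of mt-Co1 was 14.0%, 18.4% and 13.2% in vehicle and 26.9%, 21.5% and 21.3% in melatonin libraries. The shares of mt-Co3 were 18.2%, 16.3% and 18.4% in vehicle and 11.3%, 12.7% and 13.4% in melatonin libraries. The shares of mt-Co2, mt-Nd4, mt-Nd5 and mt-Nd2 were also lower in each melatonin library than in any vehicle library, and that of mt-Cytb was higher, whereas mt-Nd1, mt-Atp6 and mt-Rnr2 overlapped. These shares sum to a fixed total, so a higher share of mt-Co1 goes with lower shares elsewhere. As ratios within a library, again on own rows, mt-Co1 to mt-Co2 was 1.91, 2.72 and 1.93 in vehicle and 6.39, 4.57 and 3.66 in melatonin libraries. The ratio of mt-Co1 to mt-Co3 was 0.768, 1.13 and 0.714 in vehicle and 2.38, 1.69 and 1.58 in melatonin libraries, while mt-Co2 to mt-Co3 stayed at 0.370 to 0.415 and 0.369 to 0.433. The ratios of mt-Co1 to its fellow complex IV subunits did not overlap between groups, and that of mt-Co2 to mt-Co3 did. With the copies added the levels of these measures change. The shares were then 11.9%, 15.9% and 11.3% for mt-Co1 in vehicle and 24.4%, 19.4% and 19.3% in melatonin libraries, and 30.6%, 28.7% and 31.1% for mt-Co3 in vehicle and 20.5%, 21.4% and 22.7% in melatonin libraries. The ratio of mt-Co1 to mt-Co3 was then 0.388, 0.554 and 0.365 in vehicle and 1.19, 0.909 and 0.851 in melatonin libraries, so that mt-Co1 exceeded mt-Co3 in melatonin 1 alone. That of mt-Co1 to mt-Co2 was 1.147 to 1.71 and 2.31 to 3.54. The ratio of mt-Co2 to mt-Co3, at 0.318 to 0.324 and 0.330 to 0.369, then no longer overlapped between groups. No test was run on the shares or ratios.

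**Figure D4:**
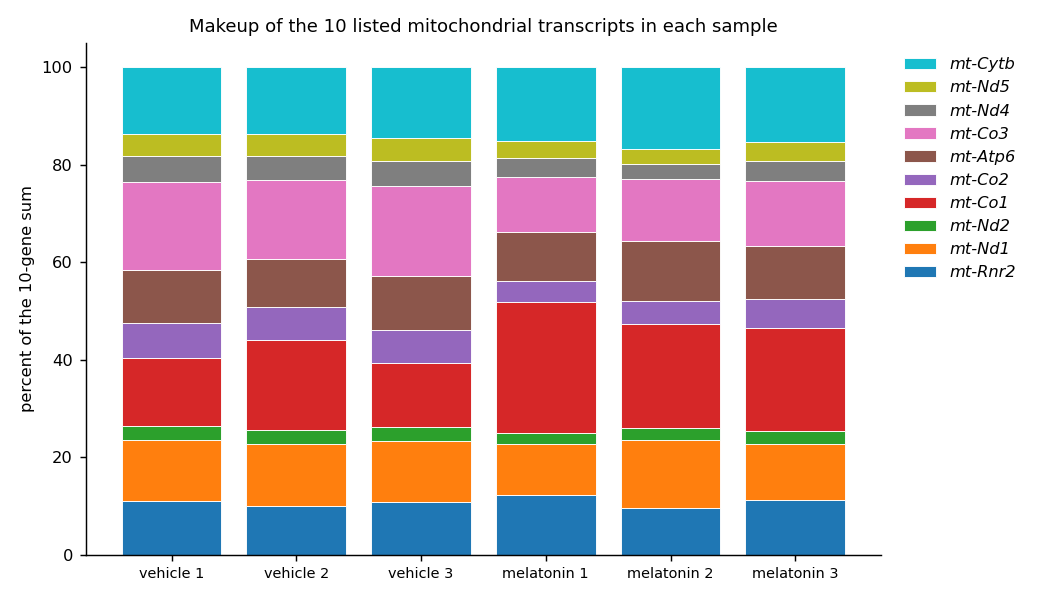
Stacked bars of the percent of the summed normalised count of the 10 genes taken by each gene, own rows only, one bar per library. The segment of mt-Co1 is 13.2% to 18.4% in vehicle and 21.3% to 26.9% in melatonin libraries.

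The members moved together from library to library. Vehicle 1 was the highest vehicle library in 9 of 10 members and melatonin 3 the highest melatonin library in 9 of 10. On the log2 scale the within-group SD had a median over members of 0.29 in vehicle and 0.40 in melatonin libraries, against 0.086 and 0.15 over the 9990 genes with a mean of at least 100. Pearson's r between members is given as a description over the 6 libraries, which share one scaling per library and the group difference. It had a median of 0.98 over 45 pairs and was lowest at 0.46, for mt-Co1 and mt-Co3. With each group's mean removed, the median r was 0.93 and the lowest 0.56, for mt-Co1 and mt-Atp6. Of 9970 nuclear genes, those whose log2 values followed the members' sum most closely over the 6 libraries were Nedd8 (r = 0.997), Dhrs11 (r = 0.996), Supt4a (r = 0.995), Acsf2 (r = 0.992) and Ndufa13 (r = 0.990). Their log2 fold changes were smaller than the median of the members, from -0.50 (Acsf2, adjusted p = 0.024) to -0.21 (Nedd8, adjusted p = 0.045), and Dhrs11 was not called (adjusted p = 0.116).

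Nuclear genes for the same complexes were also mostly lower, with a smaller median. Of 78 measured nuclear genes of complexes I to V, 56 were called lower and 0 higher, with a median log2 fold change of -0.37, and 0 were higher at an unadjusted p under 0.05 or by limma with voom weights. Over all genes tested, 24.7% were lower and 24.5% higher. With the length correction 50 of the 78 were lower and 5 higher, and with a GC correction 1 was higher. In complex I 20 of 36 were lower (median -0.29), with Ndufb8, an accessory subunit, at -0.54 (adjusted p = 0.00047) and Ndufv1, which binds NADH, at -0.16 (adjusted p = 0.094). In complex II, which has no mitochondrial subunit, 2 of 4 were lower (median -0.22), with the iron-sulfur subunit Sdhb at -0.63 (adjusted p = 0.00026) and the flavoprotein Sdha at -0.16 (adjusted p = 0.131). In complex III 8 of 9 were lower (median -0.33), with the core protein Uqcrc1 at -0.32 (adjusted p = 0.0077) and cytochrome c1 (Cyc1) at -0.42 (adjusted p = 0.0016). These changes stood beside -0.62 for mt-Cytb. In complex IV 10 of 11 were lower (median -0.50), with Cox4i1 going from a mean of 10454 to 7247 (log2 fold change -0.53, adjusted p = 0.00085) and Cox6a1 at -0.28 (adjusted p = 0.031). In complex V 16 of 18 were lower (median -0.51), with the catalytic subunit Atp5f1b going from 50074 to 32412 (log2 fold change -0.63, adjusted p = 0.00073) and Atp5f1a at -0.40 (adjusted p = 0.0035). Whether mitochondrial and nuclear subunits differed in their change was not tested.

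**Figure D5:**
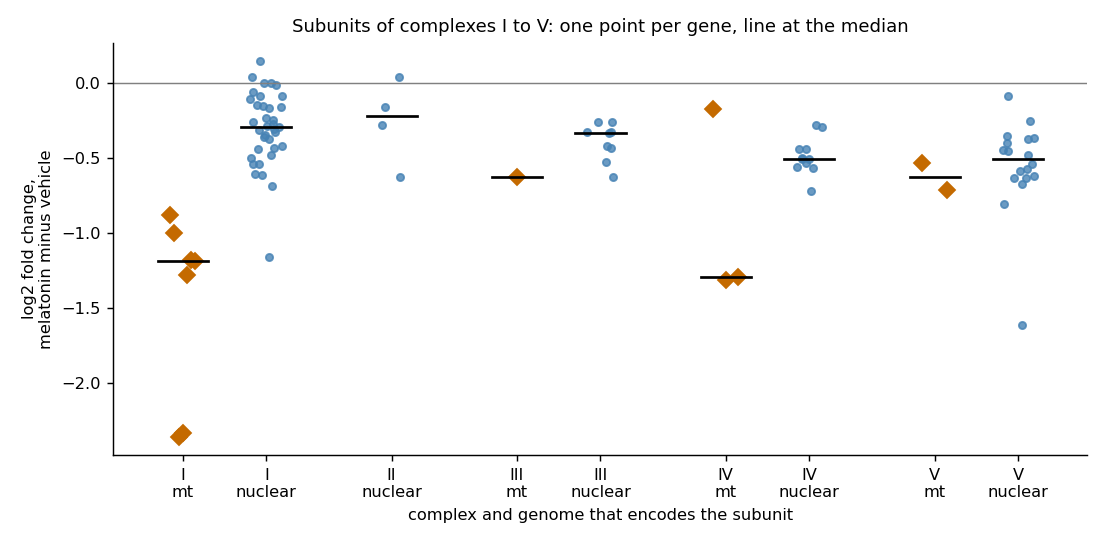
Log2 fold changes (melatonin minus vehicle) of the mitochondrial (diamonds) and nuclear (circles) genes of each respiratory complex, one point per gene on its own row, with a line at each median. The mitochondrial genes of complex I have a median of -1.19 and the nuclear ones of -0.29.

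The counts for factors that make and keep these RNAs stand beside 24.7% lower and 24.5% higher over all genes tested. Of 18 genes for transcription and maintenance of mitochondrial DNA, 3 were lower, 5 higher and 10 not called, with a median log2 fold change of -0.12. The RNA polymerase Polrmt was at 0.06 (adjusted p = 0.663), the packaging and transcription factor Tfam at -0.29 (adjusted p = 0.055) and the transcription factor Tfb2m at -0.32 (adjusted p = 0.069). The most abundant genes of this list, the matrix protease Lonp1 and the ribosomal protein Mrpl12, fell by 0.71 and 0.47. Of 27 genes for processing and stability of mitochondrial RNA, 11 were lower, 2 higher and 14 not called (median -0.20). Among these the partners Lrpprc and Slirp, which stabilise mitochondrial messengers, fell by 0.41 (adjusted p = 0.0095) and 0.66 (adjusted p = 0.00065). The oligoribonuclease Rexo2 and Hsd17b10, a subunit of mitochondrial RNase P, fell by 0.58 and 0.76. Of 77 genes for proteins of the mitochondrial ribosome, 37 were lower, 3 higher and 37 not called (median -0.25), with the most abundant, Mrpl18 and Mrpl33, at -0.16 (adjusted p = 0.203) and -0.25 (adjusted p = 0.052).

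Other measures moved with the treatment. The nuclear-retained RNAs Malat1 and Neat1 rose by 2.21 and 2.16 on the log2 scale, Malat1 from between 4193 and 6014 in vehicle to between 20144 and 26433 in melatonin libraries. Beside 24.7% lower and 24.5% higher over all genes tested, 8 of the 12 ILC2 markers were lower and 2 higher. Myeloid markers, 5 of 6 of them lower, summed to 1452 to 1649 in vehicle and 364 to 845 in melatonin libraries. The T cell markers Trac and Trbc1, both lower, summed to 1402 to 1517 and 391 to 600, while no value is listed for Cd4, Cd8a and Cd8b1. The endothelial marker Pecam1, also found on leukocytes, fell from between 1001 and 1066 to between 310 and 416, with no value listed for Cdh5 and Kdr. Of 6 lung epithelium markers tested 4 were lower and 1 higher, with a median log2 fold change of -3.65, from -6.70 for Scgb1a1, the club cell secretoglobin, to 0.72 for Epcam, and the list summed to 956 to 2307 and 1061 to 1261. Markers of basophils and mast cells and of red cells summed to at most 56.0 in any library. The part of these measures in the fall of the mitochondrial transcripts was not tested.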

How the data were processed

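RNA was sequenced on a NextSeq 500 from SMARTer oligo-dT libraries, which do not mark strand. Per the labels and methods, the authors used STAR 2.7.8a (mouse mm39) and Partek Flow 12.9.0 with Gencode M33, an expectation-maximisation count, and DESeq2 size factors, so the deposited signal is an estimated count divided by a size factor. Between 63.4% and 66.0% of values were whole reads within 0.01, so no count test was run. Here limma 3.58.1 in R 4.3.3 was fitted to log2(value + 1) by treatment with a mean-variance trend, over the 14419 genes at 10 or more in at least 1 library, with a threshold of 0.05 on Benjamini-Hochberg adjusted p. Named are all mitochondrial rows and their copies, the 2 most abundant genes in vehicle of each nuclear list, Tfam, Polrmt, Tfb2m, Lrpprc and Slirp, and the 5 nuclear genes that correlate best with the members' sum. The members and lists were chosen with earlier results of these data known. Copies are rows with at least 90% of their length at 95% identity or more to the mitochondrial genome (blastn, GRCm39, GENCODE M39). On simulated data 100 of 100 genes changed by 1 on the log2 scale were recovered, with 3 false calls of 13807. Recovery of genes that vary as widely between libraries as the members, or that move together as they do, was not tested separately. The members' median within-group log2 SD was 0.29 in vehicle and 0.40 in melatonin libraries, against 0.086 and 0.15 over genes with a mean of at least 100. Pseudocounts, filters, scalings, weights, length and GC corrections and left-out libraries were tried. Totals were estimated from the value of 1 read in each library. A further marker list is not reported here.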

Additional observations from a re-analysis of the deposited data

How the results depend on the processing

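Of the 10 members, 9 were lower in most settings. The call of mt-Rnr2 was lost under quantile normalization, with no trend, without vehicle 1, vehicle 2 or melatonin 2, and when only libraries with Y-linked transcripts were used (8 lower each, the lone melatonin library being assumed to vary like the others). With a transcript length correction 6 were lower, with a median of -0.61, mt-Cytb, mt-Atp6, mt-Rnr2 and mt-Co1 not being called, and the nuclear respiratory genes called higher numbered 5, against 1 with a GC correction. The cause was not tested. Leaving out a library moved mt-Co1 between -0.38 and 0.069, Gm13340 between -0.39 and 0.23 and Gm29216 between -0.47 and 0.058. With Y-linked libraries only, mt-Co1 was at 0.14 and Gm13340 at 0.17. With the length correction mt-Co1 was at 0.028, mt-Atp8 at 0.15, Gm13340 at 0.039 and Gm29216 at 0.23. Adding the copies of the 10 members to them changed the difference in share of all counts from -0.217 to -0.335 percentage points, since more rows were summed. The members' median was between -1.10 and -0.79 without any 1 library. With a replicate block 9 members, 3278 genes lower and 3160 genes higher were called, and same-numbered libraries did not deviate together (correlations -0.054, 0.0064 and -0.048). Values near 0, such as mt-Nd4l in melatonin 2, limit what its fold change can show.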
